A study of Homo sapiens with 19 samples.

Results

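The genes described here are the 29 genes of antigen presentation that were listed by name: the chains of the class I and class II major histocompatibility complex, the proteins that make, trim, carry and load their peptides, and the NLR-family transactivators NLRC5 and CIITA. They were matched by symbol to 1 Ensembl identifier each, out of 44717 gene identifiers counted in the series. All 29 were listed in the count files, 28 of them for all 19 samples, and HLA-DQB1 was not listed for shMITF in Hermes 3A cells. The series measured total RNA by RNA-seq after lentiviral expression of short hairpin RNAs with puromycin selection. 501Mel cells, a human melanoma line grown with fetal calf serum, received shSCR1 (a scramble control, 3 samples), shBRG1 (3 samples), shSCR2 (a scramble control, 2 samples) or shMITF (2 samples). Hermes 3A cells (H3A in the figures), an immortal line of untransformed human melanocytes, received shSCR, shBRG1 or shMITF (3 samples each) in a medium that also held TPA, cholera toxin, human stem cell factor and endothelin-1. Each line is 1 cell line, so that line and medium cannot be told apart, and no source used here says how the vectors shSCR1 and shSCR2 compare. MITF is the lineage transcription factor of melanocytes and BRG1, encoded by SMARCA4, is the ATPase of a chromatin remodelling complex of the SWI/SNF family.

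Class I molecules are made by nearly all nucleated cells. A heavy chain such as HLA-B or HLA-C pairs with the light chain B2M and shows CD8+ T cells peptides that the immunoproteasome (PSMB8, PSMB9, PSMB10) cuts, that the TAP1-TAP2 transporter carries into the endoplasmic reticulum, that ERAP1 and ERAP2 trim and that tapasin (TAPBP) helps to load. Class II molecules (HLA-DR, HLA-DP and HLA-DQ) are typical of B cells, dendritic cells and macrophages, travel with the invariant chain CD74 and are loaded by HLA-DM under the control of HLA-DO, while the protease cathepsin S (CTSS) degrades the invariant chain. NLRC5 switches on class I genes and CIITA class II genes, both without touching DNA themselves, and interferon gamma induces both pathways, also in melanoma cells.

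The values below are CPM (counts scaled to 1000000 per sample), TMM-normalized over the 19 samples together, and the fold changes come from edgeR's quasi-likelihood fit of the groups compared, with Benjamini-Hochberg adjusted p-values. A gene passed at an adjusted p under 0.05 and was called when it also changed over 2-fold. The samples held 29158502 to 78857900 counts on genes. Their files listed 42224 gene identifiers for shSCR1 and shBRG1 in 501Mel and for shSCR and shBRG1 in Hermes 3A cells. For shSCR2 and shMITF in 501Mel they listed 41467, and for shMITF in Hermes 3A cells 34033. Each fit used the identifiers listed for all its samples. The scramble controls of 501Mel, and shMITF and its control in Hermes 3A cells, thus came with unlike lists. The part of this in the results was not tested. The targeted genes were lower in their knockdowns: SMARCA4 fell by 2.35 on the log2 scale with shBRG1 in 501Mel and by 2.38 in Hermes 3A cells, and MITF fell by 1.06 and 0.85 with shMITF. MITF and SOX10 also fell with shBRG1 in 501Mel, by 1.55 and 2.44. All 7 melanocyte markers (MITF, SOX10, TYR, TYRP1, DCT, PMEL and MLANA) were at 1 CPM or more on average in each of the 7 groups, and their sum went from 28600 to 31300 CPM with shSCR1 down to 3030 to 3330 CPM with shBRG1 in 501Mel. Of the 10 leukocyte markers, PTPRC, which every leukocyte carries, had 0 to 4 counts in any sample and MS4A1 0 to 3. The exception was ITGAX, the integrin CD11c, with 121, 104 and 105 CPM with shSCR1, 2.27, 2.13 and 2.59 with shBRG1, 10.1 and 2.74 with shSCR2 and 0.577 and 0.931 with shMITF in 501Mel. The 10 markers summed to 106 to 123 CPM with shSCR1, where ITGAX alone was over 1 CPM on average, to 9.97 to 10.2 with shBRG1, where CSF1R, LYZ and ITGAX were, and to 2.54 to 11.1 CPM in the other 5 groups. The part of these transcripts in the results on class II genes was not tested. Of 6 fibroblast markers, 2 were over 1 CPM on average with shSCR1 and with shBRG1 in 501Mel (sums of 3.75 to 5.24 and 16.3 to 19.7 CPM), and COL1A2 led in Hermes 3A cells, where the sums were 72.4 to 81.4 CPM with shSCR, 144 to 154 with shBRG1 and 114 to 225 with shMITF. Of 6 keratinocyte markers, KRT10 alone was over 1 CPM in any group.

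In bulk RNA, fewer cells with a transcript and less of it per cell cannot be told apart. The labels do not say whether replicates were separate cultures, so that p-values measure only the spread between these samples, which may be technical. No replicates were as close as sampling noise would leave them. The shMITF samples of Hermes 3A cells stood furthest apart, with a chi-square of 105 to 157 per degree of freedom between replicates against 2.27 to 45.5 in the other groups, and results that rest on 1 of them are given with and without it. Scaling by library sizes in place of TMM moved the median log2 fold change of all genes by 0.35 with shBRG1 in 501Mel, by 0.26 in the comparison of the lines and by 0.10 with shBRG1 in Hermes 3A cells, so that changes below are relative to the TMM scale. With library sizes, 6192 of all genes were called higher and 2398 lower with shBRG1 in 501Mel (4453 and 3571 with TMM), 1231 and 467 with shBRG1 (996 and 598) and 686 and 540 with shMITF (553 and 667) in Hermes 3A cells, 5310 and 2730 between the lines (4333 and 3414) and 3696 and 2281 in the contrast of the shBRG1 effects (2610 and 3224).

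Of the 29 genes, 21 lie on chromosome 6 between 29722775 and 33314387 (GRCh38, GENCODE 29), 3 each on chromosomes 5 and 16, and 1 each on chromosomes 1 and 15. RefSeq promoter windows of 300 bases (250 before and 50 after a start, GRCh38.p14) were found for 24 members, as 31 windows, and none was matched for NLRC5, HLA-DRA, CIITA, CTSS and HLA-E. Both strands were searched for 6 short motifs. The core of the interferon-stimulated response element, GAAA and again GAAA after 2 bases of any kind, was in 9 of the 31 member windows and in 3.57% of all 35116 windows. It was matched at B2M, ERAP1, ERAP2, HLA-F, PSMB10, PSMB8, TAP1, TAP2 and TAPBP. The kB motif, GGG, 2 bases of any kind, TT, any base and CC, was in 22.6% of member windows and 5.68% of all windows, and the Y box ATTGG, the inverted CCAAT bound by NF-Y, in 58.1% and 34.6%. The GAS motif TTCNNNGAA was in 9.68% and 7.66%. The MITF motifs gave CATGTG in 3.23% of member windows (HLA-G alone) against 11.1% of all, and CACGTG in 0 of 31 member windows against 7.26% of all. A match is a string of letters and no measured binding site.

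Below are the upstream stretches, clear of annotated exons, of 4 members that stand for 4 patterns of the results. B2M is the light chain of every class I molecule, HLA-C is a heavy chain whose change differed in sign between the lines, HLA-DMA is a class II loading chain that fell in both lines with shBRG1, and HLA-G is the only member whose window held CATGTG. Letters in capitals mark motif matches on either strand: the response element, the kB motif and the Y box at B2M, Y boxes (ATTGG or CCAAT) at HLA-C and HLA-DMA, and overlapping CATGTG and its complement CACATG at HLA-G.
B2M (chr15:44711317-44711486, plus strand): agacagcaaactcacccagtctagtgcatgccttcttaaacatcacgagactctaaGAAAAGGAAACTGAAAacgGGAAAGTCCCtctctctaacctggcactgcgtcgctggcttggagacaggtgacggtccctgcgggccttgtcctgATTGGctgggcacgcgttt
HLA-C (chr6:31272131-31272342, minus strand): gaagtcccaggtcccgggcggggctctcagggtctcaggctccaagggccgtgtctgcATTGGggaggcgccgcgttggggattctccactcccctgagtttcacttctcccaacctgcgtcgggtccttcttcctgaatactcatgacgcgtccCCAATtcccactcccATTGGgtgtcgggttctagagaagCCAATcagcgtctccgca
HLA-DMA (chr6:32953123-32953347, minus strand): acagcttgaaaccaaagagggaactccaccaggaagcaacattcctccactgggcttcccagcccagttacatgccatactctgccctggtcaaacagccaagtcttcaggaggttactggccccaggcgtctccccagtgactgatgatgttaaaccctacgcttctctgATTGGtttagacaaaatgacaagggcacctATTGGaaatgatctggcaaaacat
HLA-G (chr6:29826717-29826966, plus strand): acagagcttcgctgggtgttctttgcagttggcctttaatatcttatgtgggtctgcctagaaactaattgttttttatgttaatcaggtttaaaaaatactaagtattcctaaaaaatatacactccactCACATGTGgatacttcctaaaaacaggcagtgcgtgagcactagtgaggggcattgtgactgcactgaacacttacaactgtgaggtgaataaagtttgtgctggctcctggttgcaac

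In the scramble controls, Hermes 3A melanocytes held several times more RNA of HLA-B, HLA-C, HLA-E and B2M than 501Mel melanoma cells. HLA-F differed by less, with means of 54.2 CPM in Hermes 3A shSCR and 36.5 in 501Mel shSCR1, and HLA-G was higher in 501Mel shSCR1, at 36.9 against 25.7 CPM. Per kilobase of the principal transcript, B2M led in both lines, with a mean of 1179 CPM per kb in Hermes 3A shSCR and 225 in 501Mel shSCR1, ahead of HLA-C with 579 and 105. The transcripts of NLRC5 and CIITA were far lower on the same scale, at 2.92 and 0.055 CPM per kb in Hermes 3A and 1.02 and 0.066 in 501Mel shSCR1. In 501Mel shSCR1 against Hermes 3A shSCR, 24 members were tested and 10 were called lower and 5 higher, where 18.2% of all 18731 genes tested were called lower and 23.1% higher. At an adjusted p under 0.05 alone, 17 passed lower and 6 higher, against 40.2% and 41.4% of all genes. The median log2 difference of the members was -0.67 and that of all genes 0.04.

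HLA-B, a class I heavy chain, had 80.8, 74.6 and 68.7 CPM in 501Mel shSCR1 and 573, 635 and 541 in Hermes 3A shSCR. B2M had 391, 383 and 377 CPM in 501Mel shSCR1 and 1952, 2005 and 2071 in Hermes 3A shSCR. The groups were far apart for both genes, with differences of 7.58-fold lower (log2 -2.92 ± 0.064, SE; adjusted p = 1.08e-22) for HLA-B and 5.1-fold lower (log2 -2.35 ± 0.048, SE; adjusted p = 2.13e-23) for B2M. HLA-C, HLA-E, TAP1, PSMB8, ERAP2 and NLRC5 were also called lower in 501Mel, by 1.48 (NLRC5) to 3.31 (ERAP2) on the log2 scale. With shSCR2 in place of shSCR1 the differences were -5.04 for HLA-B, -4.07 for HLA-C and -2.73 for B2M, and the median over the members was -2.57. The counts of HLA-B, HLA-C, HLA-E, HLA-F and HLA-G, paralogs among which reads can be misplaced, summed to 441 ± 29.5 CPM (SD, n = 3) in 501Mel shSCR1 and 2140 ± 152 CPM (SD, n = 3) in Hermes 3A shSCR.

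**Figure D1:**
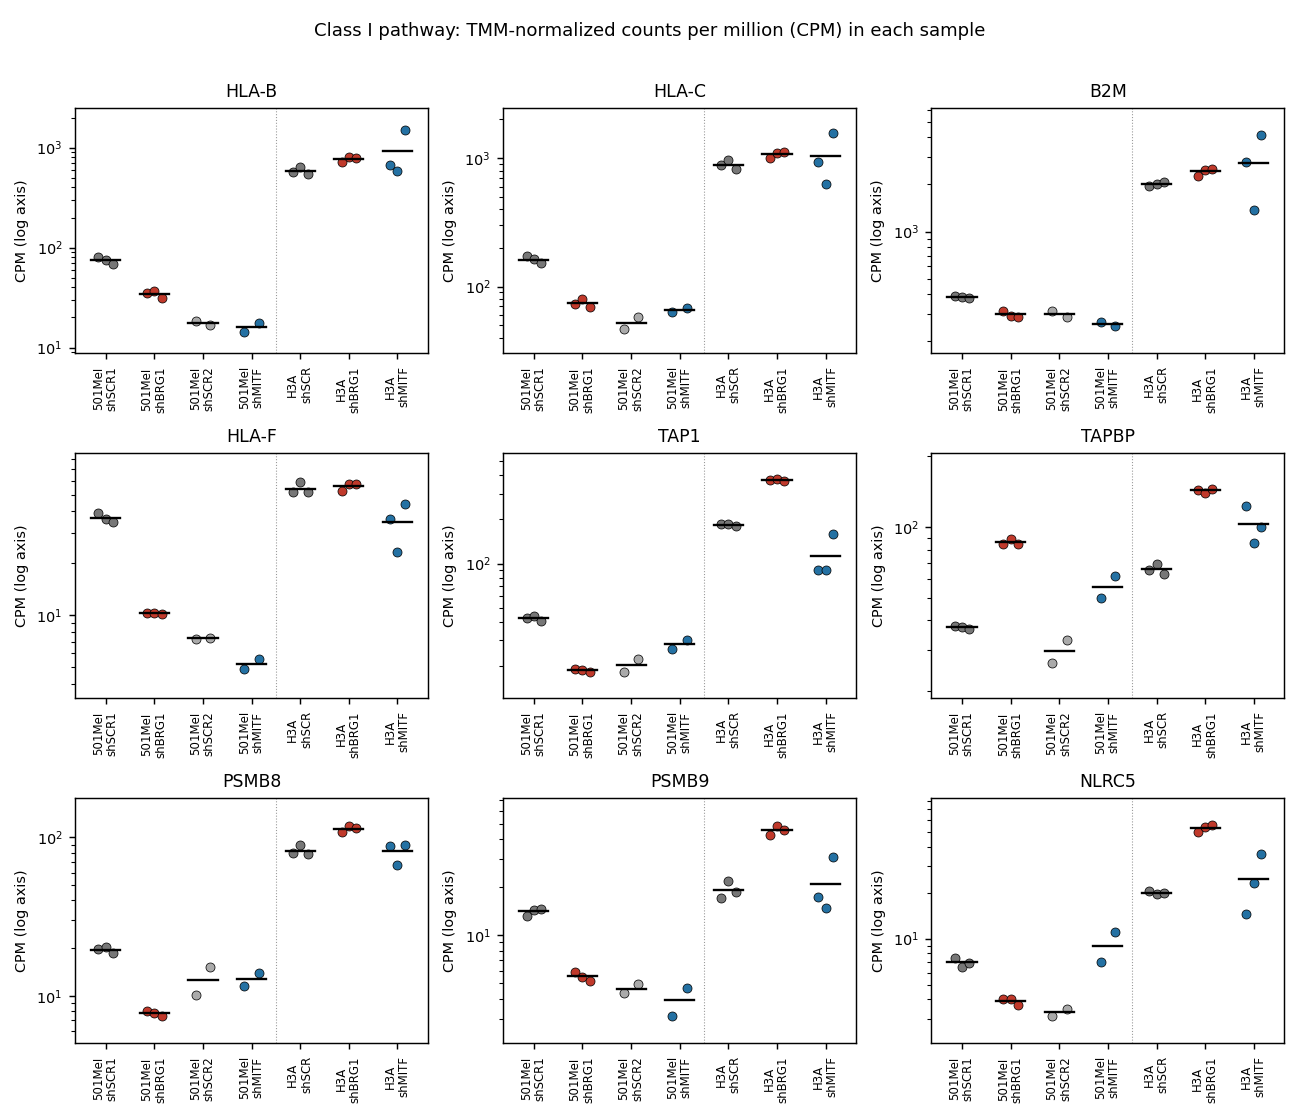
Levels of 9 class I pathway genes in each of the 19 samples, in TMM-normalized CPM on a log axis. Points are samples, bars are group means, and the dotted line divides 501Mel from Hermes 3A (H3A) cells. HLA-B lies between 14.3 and 80.8 CPM in the 10 samples of 501Mel and between 541 and 1518 CPM in the 9 of Hermes 3A cells.

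The class II genes had no common direction between the lines. HLA-DRA, the alpha chain of HLA-DR, had 0 counts in all 10 samples of 501Mel, where 3 counts would be 0.00641 CPM of their summed total, and 2 counts in 3 samples of Hermes 3A shSCR. HLA-DRB1, HLA-DRB5, HLA-DQA1 and HLA-DQB1 had at most 11 counts in any sample and entered no test, and HLA-DRB1 and HLA-DRB5 summed, since they share reads, to at most 0.675 CPM. HLA-DPB1 had 6 to 10 counts per sample in 501Mel shSCR1 and 14.4, 14.8 and 14.2 CPM in Hermes 3A shSCR, 83-fold lower (log2 -6.38 ± 0.17, SE; adjusted p = 5.92e-21), and met the filter on low counts through Hermes 3A cells. Its partner HLA-DPA1 was higher in 501Mel, with 5.68, 5.27 and 5.38 CPM against 1.22, 1.55 and 1.501 (log2 fold change 1.98 ± 0.15, adjusted p = 7.42e-12). HLA-DPA1 and HLA-DPB1 have overlapping exons on opposite strands, and no source used here states whether counting used strand. CD74 was at 1.08, 1.15 and 1.14 CPM in 501Mel shSCR1 and had 1, 5 and 5 counts in Hermes 3A shSCR (log2 fold change 3.61 ± 0.41, adjusted p = 1.61e-08). HLA-DMB, HLA-DOA and HLA-DOB were called higher in 501Mel too, and CTSS was called lower, by 3.76 on the log2 scale. CD74, HLA-DOA and HLA-DOB met the filter through 501Mel, HLA-DOA with 35 counts summed over the Hermes 3A shSCR samples. With shSCR2 standing for 501Mel, 17 of 23 members tested were called lower and 1, CD74, higher, and HLA-DOB was not tested. Of all 18610 genes tested there, 4254 were called lower and 3851 higher. The log2 differences of HLA-DPA1, HLA-DOA, HLA-DMB and HLA-G were then -0.03, -0.65, 0.02 and -1.01.

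The control groups of 501Mel differed widely in these genes. Of 23 members tested in shSCR2 against shSCR1, 12 were called lower and 1 higher (CTSS), where 20.7% of the 19056 genes tested were called lower and 12.3% higher. Among the 12, HLA-DOA and HLA-DOB met the filter on low counts through shSCR1, with 19 and 15 counts summed over the shSCR2 samples. With at least 10 counts in every sample these genes were not tested, and 11 members were called lower. At an adjusted p under 0.05 alone, 19 passed lower and 1 higher, against 34.5% and 35.3% of all genes. The median log2 fold change was -1.06 over the members and -0.03 over all genes. CTSS was not called with library sizes, or when any shSCR1 sample or shSCR2 replicate 1 was left out. HLA-B had 18.5 and 16.6 CPM with shSCR2, below every other control sample of the series (log2 fold change -2.09 ± 0.11, adjusted p = 8.19e-07). HLA-DMA, a chain of HLA-DM, fell in the same comparison from 13.7, 11.4 and 11.3 to 2.97 and 1.73 CPM (log2 fold change -2.42 ± 0.25, adjusted p = 4.75e-05). Each knockdown is therefore read against its own scramble control below, and the levels with the other control are given where they matter.

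With shBRG1 in 501Mel, most of the class I and class II genes tested fell, while tapasin rose. Of 23 members tested, 16 passed lower and 5 higher, and 11 were called lower and 1 higher (8 and 2 on library sizes, when HLA-B, HLA-C and TAP1 were not called). Among all 20514 genes tested, 39.1% passed lower and 41.2% higher, 17.4% were called lower and 21.7% were called higher. The median log2 fold change was -0.88 over the members and 0.05 over all genes. HLA-DPB1 and the 5 HLA-DR and HLA-DQ chains were too low to be tested, and CD74 and HLA-DOB did not pass.

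Of the 6 class I chains, 5 fell and HLA-E rose. HLA-B went from 80.8, 74.6 and 68.7 CPM with shSCR1 to 34.9, 37.1 and 31.4 with shBRG1, 2.24-fold lower (log2 -1.17 ± 0.061, SE; adjusted p = 2.16e-14). HLA-C went from 172, 163 and 152 to 73.7, 80.1 and 69.8 CPM (log2 fold change -1.17 ± 0.054, adjusted p = 1.9e-15). In both genes every shBRG1 sample lay below every shSCR1 sample. HLA-F, a nonclassical heavy chain, fell from 39.0, 36.0 and 34.5 to 10.3, 10.3 and 10.1 CPM (log2 fold change -1.88 ± 0.063, adjusted p = 3.99e-18), and its antisense neighbour HLA-F-AS1, with overlapping exons, fell by 2.70. HLA-G, best known from the placenta, fell from 38.5, 37.3 and 35.0 to 8.38, 7.58 and 7.16 CPM (log2 fold change -2.31 ± 0.067, adjusted p = 2.79e-19). B2M changed least of the 5, from 391, 383 and 377 to 312, 289.5 and 286 CPM (log2 fold change -0.42 ± 0.046, adjusted p = 1.29e-08), and with library sizes in place of TMM its change was -0.07 and did not pass. HLA-E, the ligand of the NKG2A receptor of natural killer cells, passed in the other direction by 0.16.

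The peptide supply moved both ways. TAP1, the transporter subunit, fell from 42.7, 43.9 and 40.5 to 19.2, 18.7 and 18.3 CPM (log2 fold change -1.23 ± 0.055, adjusted p = 8.53e-16). PSMB8 fell from 19.8, 20.5 and 18.6 to 8.07, 7.80 and 7.48 CPM (log2 fold change -1.38 ± 0.069, adjusted p = 7.35e-15) and PSMB9 from 13.2, 14.4 and 14.6 to 5.90, 5.50 and 5.14 CPM (log2 fold change -1.40 ± 0.08, adjusted p = 9.77e-14). These inducible subunits of the immunoproteasome are neighbours with overlapping exons on opposite strands. TAPBP rose, from 37.9, 37.3 and 36.9 to 84.5, 89.0 and 84.5 CPM (log2 fold change 1.15 ± 0.048, adjusted p = 2.79e-16), with no overlap of the groups. PSMB10 and ERAP1 fell by 0.59 and 0.80 on the log2 scale, and TAP2 and ERAP2 rose by 0.28 and 0.32. TAP1 and TAP2, the subunits of one transporter, thus passed in opposite directions.

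The largest falls were in class II genes that were low to begin with. HLA-DPA1 fell from 5.68, 5.27 and 5.38 CPM to 0.398, 0.352 and 0.247 (log2 fold change -4.06 ± 0.16, adjusted p = 1.1e-16). HLA-DMA fell from 13.7, 11.4 and 11.3 to 2.58, 2.42 and 2.63 CPM (log2 fold change -2.31 ± 0.10, adjusted p = 5.38e-16) and its partner HLA-DMB from 3.02, 3.40 and 2.75 to 0.497, 0.386 and 0.495 CPM (log2 fold change -2.79 ± 0.17, adjusted p = 4.85e-13). HLA-DMA has exons that overlap those of BRD2, a gene with many more counts, which rose by 0.18 in this comparison. HLA-DOA, the alpha chain of HLA-DO, had 59, 38 and 27 counts with shSCR1 and 4, 2 and 6 with shBRG1 (log2 fold change -3.69 ± 0.38, adjusted p = 4.56e-09), and it met the filter on low counts through the shSCR1 samples. CTSS passed lower, by 0.81. CD74 had 1.08, 1.15 and 1.14 CPM with shSCR1 and 0.994, 0.906 and 0.971 with shBRG1, a log2 difference of -0.28 ± 0.18 that did not pass (adjusted p = 0.149).

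Both transactivators passed, in opposite directions and under 2-fold. NLRC5 fell from 7.44, 6.57 and 6.95 to 4.03, 4.03 and 3.67 CPM (log2 fold change -0.88 ± 0.095, adjusted p = 1.05e-08). It was lower still with shSCR2, at 3.10 and 3.48 CPM, and did not pass against both controls pooled (-0.50). CIITA rose from 1.16, 1.08 and 0.944 to 2.00, 2.23 and 1.77 CPM (log2 fold change 0.86 ± 0.16, adjusted p = 4.13e-05). DEXI, whose exons overlap those of CIITA on the opposite strand, fell by 0.80.

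The shBRG1 levels did not all lie below those of the other control. Of the 11 members called lower, HLA-B, HLA-C, HLA-F and PSMB9 were lower in every shSCR2 sample than in every shBRG1 sample. HLA-DOA, HLA-G, HLA-DPA1, HLA-DMB and PSMB8 were higher in every shSCR2 sample, and the samples of TAP1 and HLA-DMA overlapped. How often these groups stand clear of each other over all genes was not counted. HLA-B, for example, had 18.5 and 16.6 CPM with shSCR2 against 34.9, 37.1 and 31.4 with shBRG1. With both controls pooled, 6 of 23 members tested were called lower and 2 higher, against 3029 and 4274 of all 20772 genes tested. HLA-DPA1, HLA-DMB, HLA-DOA, HLA-G, PSMB8 and CTSS were then the 6, and TAPBP and CIITA the 2. HLA-B, with a log2 fold change of -0.59, HLA-C with -0.67, HLA-F with -1.28, PSMB9 with -0.91 and HLA-DMA with -1.70 did not pass against the pooled controls.

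**Figure D2:**
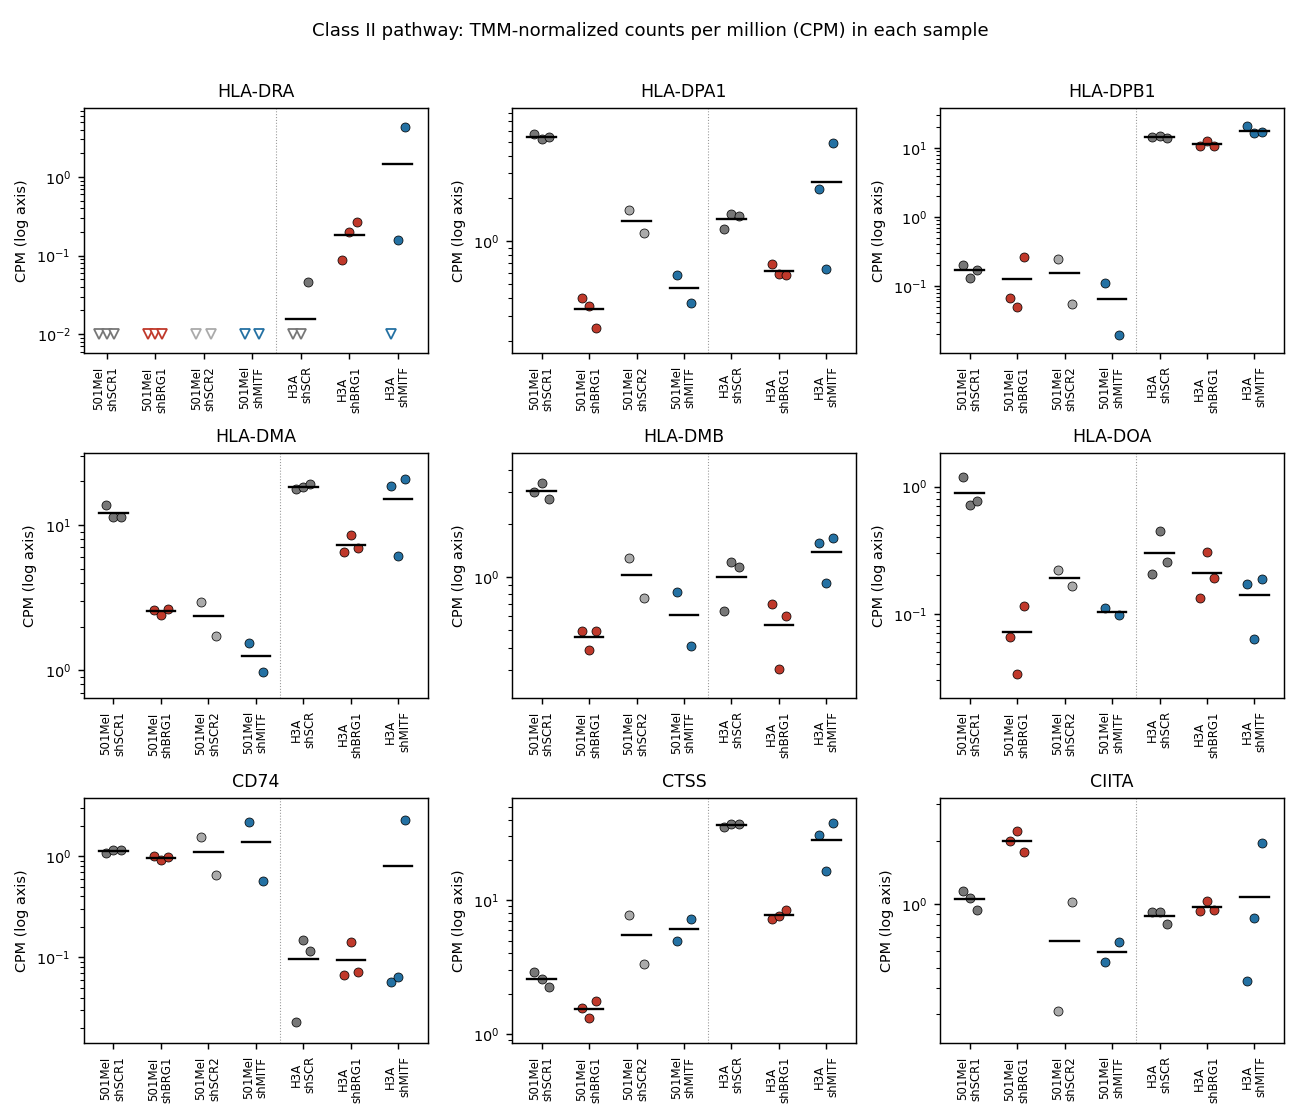
Levels of 9 class II pathway genes in each of the 19 samples, in TMM-normalized CPM on a log axis. Points are samples, bars are group means, open triangles drawn at the foot of the panel are samples with 0 counts, and the dotted line divides 501Mel from Hermes 3A (H3A) cells. HLA-DRA has a point above 1 CPM in 1 sample alone, replicate 3 of shMITF in Hermes 3A cells, at 4.27 CPM.

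In Hermes 3A cells with shBRG1, 9 class I genes passed higher and 2 lower, and all 5 class II genes that passed were lower. Of 22 members tested, 10 passed higher and 7 lower, and 3 were called in each direction. Over all 17222 genes tested, 28.2% passed higher and 28.6% lower, 5.78% were called higher and 3.47% lower. The median log2 fold change was 0.07 over the members and 0.01 over all genes. NLRC5, TAPBP and PSMB9 were called higher, and CTSS, HLA-DMA and HLA-DPA1 lower.

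NLRC5 rose from 20.4, 19.5 and 19.9 CPM with shSCR to 49.6, 53.5 and 55.3 with shBRG1 (log2 fold change 1.39 ± 0.061, adjusted p = 2.75e-17). PSMB9 rose from 17.2, 21.8 and 18.5 to 42.4, 48.5 and 45.5 CPM (log2 fold change 1.23 ± 0.075, adjusted p = 3e-14) and TAPBP from 65.5, 69.3 and 62.8 to 144, 139.6 and 145 CPM (log2 fold change 1.10 ± 0.045, adjusted p = 4.61e-18). In each of these genes the groups were clear of each other. TAP1 went from 186, 186 and 179 to 369, 374 and 365 CPM (log2 fold change 0.99 ± 0.038, adjusted p = 1.33e-18), 1.99-fold higher and so just short of a call (called with library sizes and without shSCR replicate 2). PSMB8-AS1, whose exons overlap those of PSMB8, PSMB9 and TAP1, rose by 1.32 on the log2 scale with far fewer counts (a mean of 87.9 in the samples of Hermes 3A cells).

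The class I chains changed by less than these genes. HLA-B went from 573, 635 and 541 to 715, 804 and 796 CPM (log2 fold change 0.39 ± 0.052, adjusted p = 2.56e-07) and HLA-C from 876, 968 and 824 to 998, 1095 and 1110 CPM (log2 fold change 0.25 ± 0.052, adjusted p = 0.000168). B2M went from 1952, 2005 and 2071 to 2262, 2485 and 2524 CPM (log2 fold change 0.25 ± 0.045, adjusted p = 1.8e-05). The groups did not overlap in any of these 3 genes. HLA-E, PSMB8 and ERAP1 also passed higher, by 0.41, 0.45 and 0.11, and PSMB10 and ERAP2 lower, by 0.45 and 0.42. HLA-F and HLA-G did not pass, with log2 fold changes of 0.03 and -0.11. HLA-F-AS1, antisense to HLA-F, fell by 0.74. With the shMITF samples in the same fit, 6 of 21 members tested passed higher and 2 lower, and HLA-DPA1 was not called. In that fit 1837 of all 17652 genes tested passed higher and 1965 lower.

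CTSS, the cathepsin that cuts the invariant chain, fell most, from 35.0, 37.1 and 36.9 to 7.27, 7.68 and 8.50 CPM (log2 fold change -2.23 ± 0.074, adjusted p = 4.24e-20). HLA-DMA fell from 17.6, 18.2 and 19.3 to 6.49, 8.54 and 6.96 CPM (log2 fold change -1.33 ± 0.09, adjusted p = 3.84e-13), and HLA-DPA1 from 1.22, 1.55 and 1.501 to 0.687, 0.59 and 0.576 CPM (log2 fold change -1.21 ± 0.25, adjusted p = 0.000138). HLA-DPB1 and HLA-DMB passed lower by 0.34 and 0.92. CIITA did not pass, with 0.92, 0.923 and 0.808 CPM with shSCR and 0.93, 1.04 and 0.936 with shBRG1 (log2 difference 0.12 ± 0.25, adjusted p = 0.705). HLA-DRA had 0, 0 and 2 counts with shSCR and 4, 11 and 11 with shBRG1, too few to pass the filter on low counts, and was called higher when no filter was set.

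**Figure D3:**
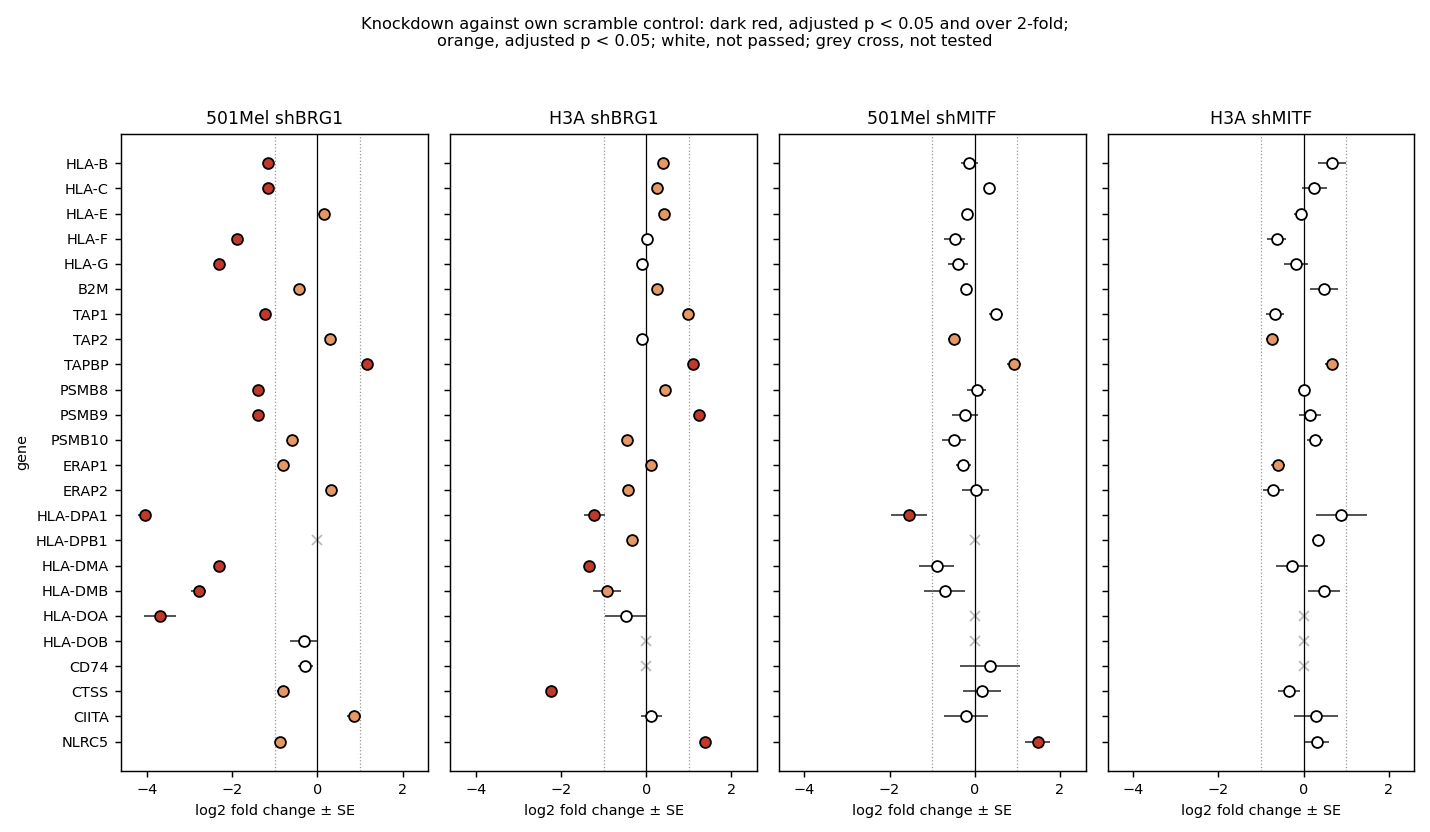
Log2 fold changes (points) with their standard errors (bars) of the 24 members tested in at least 1 of the 4 knockdown comparisons, each against its own scramble control. Dotted lines mark a 2-fold change and grey crosses genes not tested. The panel of 501Mel shBRG1 holds 11 members called lower, and that of shMITF in Hermes 3A (H3A) cells holds none called.

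The effects of shBRG1 in the lines were compared by the contrast of both effects in a fit of the 4 groups. Of 21 members tested in both lines, 8 passed lower in 501Mel and higher in Hermes 3A cells: B2M, ERAP1, HLA-B, HLA-C, NLRC5, PSMB8, PSMB9 and TAP1. The opposite pair of directions was seen for ERAP2 alone. CTSS, HLA-DMA, HLA-DMB, HLA-DPA1 and PSMB10 passed lower in both lines, and HLA-E and TAPBP higher in both. How many of all genes showed each pair of directions was not counted. Taken singly, 39.1% of all genes passed lower and 41.2% higher in 501Mel, and 28.6% and 28.2% in Hermes 3A cells. By the contrast itself, 15 of 24 members passed with a lower effect in 501Mel and 4 with a higher one (33.1% and 24.8% of all genes), 12 and 1 of them by over 2-fold, against 14.9% and 12.0% of the 21697 genes tested that differed by over 2-fold. The difference for NLRC5 was -2.30 ± 0.11 (adjusted p = 2.08e-20), for TAP1 -2.25 ± 0.063 (adjusted p = 1.93e-27) and for PSMB9 -2.66 ± 0.11 (adjusted p = 6.25e-22). For TAPBP, with effects of 1.15 and 1.10, the contrast gave a difference of 0.02 ± 0.065, adjusted p = 0.833. The control of 501Mel in this contrast was shSCR1. Of the 8 members with opposite directions, NLRC5, HLA-B, HLA-C and PSMB9 were higher in every shBRG1 sample than in every shSCR2 sample, so that against shSCR2 their direction in 501Mel turned. B2M, ERAP1 and TAP1 overlapped between those groups, and PSMB8 alone was lower in every shBRG1 sample. Such separation was not counted over all genes. HLA-E did not pass with library sizes.

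**Figure D4:**
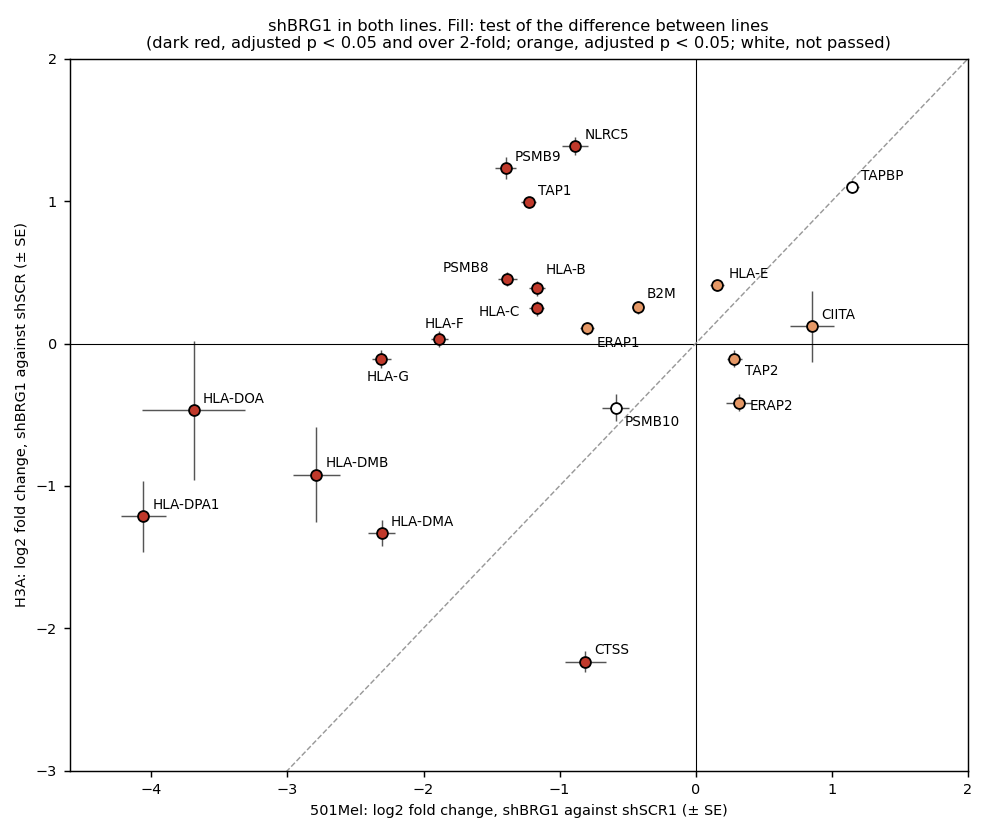
Log2 fold changes with shBRG1 in 501Mel (horizontal) and Hermes 3A cells (vertical, H3A) for the 21 members tested in both, with standard errors as bars. The dashed line marks equal effects, and the fill shows the test of the difference between the lines. NLRC5, TAP1, PSMB8, PSMB9, HLA-B and HLA-C lie at the upper left, lower in 501Mel and higher in Hermes 3A cells.

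With shMITF in 501Mel, of 21 members tested, 2 passed higher (NLRC5 and TAPBP) and 2 lower (HLA-DPA1 and TAP2), while 10.0% of the 17701 genes tested passed higher and 10.5% lower. With all 501Mel groups in one fit, 4 of 24 passed higher and 7 lower, against 3775 and 3956 of all 22255 genes tested. NLRC5 and HLA-DPA1 were called in either fit. Among all genes, 5.59% were called higher and 3.40% lower in the fit of this pair. In the fit of all 501Mel groups, 1596 were called higher and 922 lower. The median log2 fold change was -0.20 over the members and 0.01 over all genes. NLRC5 had 3.10 and 3.48 CPM with shSCR2 and 7.01 and 10.98 with shMITF (log2 fold change 1.47 ± 0.30, adjusted p = 0.00976). HLA-DPA1 had 1.66 and 1.13 CPM with shSCR2 and 0.577 and 0.369 with shMITF (log2 fold change -1.54 ± 0.43, adjusted p = 0.0333). The groups, of 2 samples each, did not overlap in either gene. The shMITF levels of NLRC5 overlapped those of shSCR1, 7.44, 6.57 and 6.95 CPM. Without shMITF replicate 2 the change of NLRC5 was 1.07 (adjusted p = 0.0748) and that of HLA-DPA1 -1.28 (adjusted p = 0.154). HLA-DPA1 was also lost without shSCR2 replicate 1, at -1.22 (adjusted p = 0.12). TAPBP went from 26.4 and 33.0 to 49.6 and 61.8 CPM (log2 fold change 0.93 ± 0.17, adjusted p = 0.00568) and was called when scaled by library sizes, and when shSCR2 replicate 2 or shMITF replicate 1 was left out, at 1.03 and 1.09. Against both controls pooled, none of NLRC5 (0.71), HLA-DPA1 (-3.02) and TAPBP (0.70) passed.

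The class I chains did not pass with shMITF in 501Mel in the fit of this pair of groups. HLA-C had 63.0 and 68.0 CPM against 46.8 and 58.0 with shSCR2 (0.34 ± 0.14, adjusted p = 0.112), and passed higher with library sizes (0.44). HLA-B had 14.3 and 17.5 CPM against 18.5 and 16.6 with shSCR2 (-0.13 ± 0.20, adjusted p = 0.695). B2M had 266 and 249.9 CPM against 309 and 286 (-0.20 ± 0.12, adjusted p = 0.294). TAP1 had 26.3 and 30.0 CPM against 18.2 and 22.2 (0.50 ± 0.17, adjusted p = 0.0627), and PSMB9 3.13 and 4.68 against 4.32 and 4.92 (-0.22 ± 0.31, adjusted p = 0.658). TAP1 passed higher by DESeq2 and with library sizes, at 0.49 and 0.59. CIITA had 0.532 and 0.66 CPM, between the values of 0.313 and 1.02 in the shSCR2 samples.

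With shMITF in Hermes 3A cells none of the 21 members tested was called by edgeR or by DESeq2. Of all 16508 genes tested, edgeR called 3.35% higher and 4.04% lower, and DESeq2 called 668 genes higher and 751 lower. In edgeR's fit TAPBP passed higher and TAP2 and ERAP1 lower, and 6 members had an unadjusted p under 0.05. Among all genes edgeR passed 7.85% higher and 9.15% lower. DESeq2 passed 1 member higher and 5 lower, against 1868 and 2031 of the same 16508 genes. The median log2 fold change was 0.15 over the members and 0.05 over all genes. TAPBP had 65.5, 69.3 and 62.8 CPM with shSCR and 123, 85.2 and 99.8 with shMITF (log2 fold change 0.66 ± 0.15, adjusted p = 0.0206), so that it passed higher in all 4 knockdown comparisons. TAP2 fell by 0.75 and ERAP1 by 0.59 on the log2 scale. These 3 genes all failed to pass without shSCR replicate 2 or without shSCR replicate 3. Without shSCR replicate 1, 0 members passed higher and 1 lower, so that TAPBP did not pass higher there either.

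The replicates of this group stood apart from each other. Of 22 members with a mean of 1 CPM or more, 19 were highest in replicate 3 and 19 lowest in replicate 2. The median ratio of their highest to their lowest replicate was 2.13, against 1.10 with shSCR and 1.11 with shBRG1. Neither was counted over all genes, so that the pattern is not shown to be particular to the members. HLA-B had 664, 586 and 1518 CPM in replicates 1, 2 and 3, with shSCR at 573, 635 and 541. B2M had 2790, 1378 and 4103 CPM in the same order. PSMB9 had 17.3, 14.8 and 31.0 CPM, NLRC5 14.5, 23.1 and 36.0 and TAP1 90.6, 90.2 and 159. Replicate 3 was also the only sample of the series with more than 11 counts of HLA-DRA. HLA-DRA had 0, 5 and 114 counts in replicates 1, 2 and 3, CD74 2, 2 and 61 counts, and CIITA 0.431, 0.863 and 1.95 CPM. HLA-DPA1 had 2.33, 0.639 and 4.91 CPM and was called higher when replicate 2 was left out (1.35, adjusted p = 0.0354), while without replicate 3 its change was 0.10 (adjusted p = 0.919). Without replicate 3, TAPBP passed higher and TAP1, TAP2, ERAP1 and HLA-F lower, and the median log2 fold change of the members was -0.19. Of the leukocyte markers, PTPRC had 2, 1 and 2 counts in these replicates. The 7 melanocyte markers summed to 26500 to 34400 CPM in this group and to 63800 to 65300 with shSCR, and SOX10 had 423, 1284 and 704 CPM in them.

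By the contrast between the lines, no member had a shMITF effect that passed as different in edgeR, where 2.16% of 19284 genes passed higher and 0.830% lower, 2.00% and 0.643% of them over 2-fold, and 4 members had an unadjusted p under 0.05. TAP1 and NLRC5 were called as higher in 501Mel without replicate 3 of shMITF in Hermes 3A cells, and B2M and HLA-DPA1 as lower without its replicate 2. DESeq2 passed TAP1, which was higher in 501Mel after shMITF (18.2 and 22.2 to 26.3 and 30.0 CPM) and lower in Hermes 3A cells (186, 186 and 179 to 90.6, 90.2 and 159 CPM).

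Genes that work beside the members were counted in 8 further lists of 63 genes. With shBRG1 in 501Mel, 43 of the 60 tested passed lower and 15 higher, and in Hermes 3A cells 23 passed lower and 18 higher. Over all genes 39.1% passed lower and 41.2% higher in 501Mel, and 28.6% and 28.2% in Hermes 3A cells. Between the control groups of 501Mel, shSCR2 against shSCR1, 28 of 59 passed lower and 19 higher. The chaperone list held CALR, CANX, PDIA3, TAPBPL, HSPA5, UGGT1 and the protease SPPL2A. It passed lower in 7 of 7 in 501Mel and 6 of 7 in Hermes 3A cells, and PDIA3, the disulfide isomerase ERp57 of the loading complex, fell by 2.88 in 501Mel. The endosomal proteases and the reductase IFI30, which prepare peptides for class II, passed lower in 8 of 8 in 501Mel, with CTSF falling by 3.28, and in 6 of 8, with 1 higher, in Hermes 3A cells, with IFI30 falling by 1.00. The same 8 of 8 were lower in shSCR2 than in shSCR1, CTSF by 2.49. The NF-kB factors passed higher in 6 of 6 and 4 of 6, and NFKBIA, the inhibitor that NF-kB itself induces, rose by 2.00 in 501Mel. In the interferon gamma list, 7 of 9 passed lower and 2 higher in 501Mel, where the feedback inhibitor SOCS1 rose by 1.68, and 3 passed in each direction in Hermes 3A cells, where SOCS3 rose by 1.08. The subunits of the constitutive proteasome and its activator passed lower in 5 of 7 and higher in 2 in 501Mel (PSME1, of the PA28 activator, fell by 1.66) and lower in 2 and higher in 1 in Hermes 3A cells. The RFX, CREB and NF-Y factors of the enhanceosome, the platform of NLRC5 and CIITA, passed lower in 5 of 7 and higher in 1 in 501Mel and higher in 4 and lower in 1 in Hermes 3A cells, none over 2-fold. Class I-like molecules passed lower in 5 of 9 and higher in 3 in 501Mel, where ULBP1, a ligand of NKG2D, fell by 1.95, and 2 passed in each direction in Hermes 3A cells, where HFE rose by 1.12. Of 7 T cell ligands tested, 6 passed lower and 1 higher in 501Mel, with TNFRSF14 falling by 2.34, and 3 in each direction in Hermes 3A cells, with TNFSF4 falling by 1.55. In shSCR2 against shSCR1, T cell ligands passed lower in 6 of 7, class I-like molecules in 5 of 8 (1 higher) and the interferon gamma list in 5 of 9 (1 higher). The chaperone list passed lower in 2 and higher in 3 there, the proteasome list in 1 and 5, the enhanceosome in 0 and 6 and the NF-kB factors in 1 and 3.

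With shMITF, 6 of 59 of these genes passed higher and 4 lower in 501Mel, and 3 of 60 higher and 10 lower in Hermes 3A cells, where 10.0% and 10.5% of all genes passed higher and lower in 501Mel and 7.85% and 9.15% in Hermes 3A cells. CTSB, a lysosomal protease, rose by 2.37 in 501Mel and ULBP1 by 1.63. CD274, which encodes the checkpoint ligand PD-L1, was called lower with shMITF in both lines. Its log2 fold change was -2.22 ± 0.309 in Hermes 3A cells (adjusted p = 0.00326). In 501Mel, with 2 samples per group, it was -1.12 ± 0.347, just under the threshold (adjusted p = 0.0497). The 4 genes of the chaperone list that passed lower in Hermes 3A cells had no called gene among them.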

How the data were processed

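Total RNA depleted of ribosomal RNA was sequenced in 19 samples. The deposited values are raw counts of reads per Ensembl gene. The submitters' processing notes name CASAVA 1.8, TopHat 1.4.1, Bowtie 0.12.7 and hg19; the counting program, annotation release and strand setting are not given in the sources used here. Without strand, reads of overlapping genes on opposite strands cannot be told apart: 11 members have such a partner, and 8 overlap a gene on their own strand. Counts of the class I paralogs are uncertain, since reads can be split among them.

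Gene symbols, positions and principal transcripts came from GENCODE 29 (GRCh38), promoter windows from RefSeq (GRCh38.p14). No coordinate was converted. Counts were fitted with edgeR 4.0.16 in R 4.3.3 (TMM, filterByExpr, robust quasi-likelihood test, Benjamini-Hochberg adjustment over all genes tested), for each knockdown with its own control. DESeq2 1.42.0 was an alternative. The scripts were tested on simulated data. Values in every sample are given for members called in at least 1 of the 4 knockdown comparisons, and for B2M, CIITA, CD74 and HLA-DRA; of the other pathway lists, the called gene with the largest change is named per list and knockdown comparison, except that 1 such result is not reported here. ITGAX, SOX10 and the overlapping partners were named after their values were seen. The members and lists were chosen with earlier results of these data known. Replicate numbers were not used to pair samples.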

Additional observations from a re-analysis of the deposited data

Results flagged for a closer look

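The effect of shBRG1 differed between 501Mel and Hermes 3A cells, by edgeR's contrast of both effects (adjusted p under 0.05), for 19 of the 24 members tested. Of all 21697 genes tested, 33.1% passed with a lower effect in 501Mel and 24.8% with a higher one. The differences below are log2 fold changes in 501Mel minus those in Hermes 3A cells. Among the class I chains the difference was -2.23 for HLA-G, -1.94 for HLA-F, -1.59 for HLA-B, -1.45 for HLA-C, -0.71 for B2M and -0.28 for HLA-E. In the peptide supply it was -2.66 for PSMB9, -2.25 for TAP1, -1.87 for PSMB8, -0.93 for ERAP1, 0.36 for TAP2 and 0.70 for ERAP2. Among the class II genes it was -3.25 for HLA-DOA, -2.88 for HLA-DPA1, -1.89 for HLA-DMB, -1.0 for HLA-DMA and 1.39 for CTSS. NLRC5 gave -2.30 and CIITA 0.70. HLA-DOA had 4, 2 and 6 counts with shBRG1 in 501Mel and could not be tested with at least 10 counts in every sample. The control of 501Mel was shSCR1: NLRC5, HLA-B, HLA-C, HLA-F and PSMB9 were lower in every shSCR2 sample than in every shBRG1 sample, and did not pass with shBRG1 in 501Mel against both controls pooled. No group holds more than 3 samples, so that no single sample was tested for standing apart from its group.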

How the results depend on the processing

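Counts of members are given as called at an adjusted p under 0.05 and over 2-fold. With no fold threshold they were 5 higher in 501Mel shBRG1, 2 higher and 2 lower in 501Mel shMITF, 10 higher and 7 lower in Hermes 3A shBRG1, 1 higher and 2 lower in Hermes 3A shMITF, 17 lower between the lines, 19 lower in shSCR2 against shSCR1, and 4 higher in the contrast of the shBRG1 effects. With library sizes in place of TMM, 2 were higher in 501Mel shBRG1, 2 higher in 501Mel shMITF and 0 higher in shSCR2 against shSCR1. With no filter on low counts, 2 were higher in 501Mel shBRG1 (TAPBP and HLA-DRB5). With at least 10 counts in every sample, 2 were higher between the lines and 0 in shSCR2 against shSCR1. glmTreat against a 2-fold change gave 0 higher and 0 lower in 501Mel shMITF. With both 501Mel controls pooled, shBRG1 gave 2 higher and 6 lower, and shMITF 0 higher and 0 lower. With shSCR2 for 501Mel, 1 was higher and 17 lower than in Hermes 3A cells. Of the members that passed with shSCR1, HLA-G (-1.01), HLA-DOA (-0.65) and HLA-DPA1 (-0.0322) then changed sign. In the contrast of the shMITF effects DESeq2 called 1 higher (TAP1). The cause was not tested for any of these.

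Leaving out 1 replicate at a time gave 11 to 11 lower and 1 to 1 higher in 501Mel shBRG1, 0 to 2 higher and 0 to 1 lower in 501Mel shMITF, 3 to 4 in each direction in Hermes 3A shBRG1, 0 to 1 higher and 0 to 0 lower in Hermes 3A shMITF, 0 to 1 higher and 10 to 13 lower in shSCR2 against shSCR1, and 0 to 2 higher and 0 to 2 lower in the contrast of the shMITF effects. A sample left alone in its group is assumed to vary like the other group. Of 1254 single-gene values without 1 replicate, 1197 kept their status as passed or not passed, and 0 changed sign among those that had passed. Of 1107 under the other settings, 992 kept that status and 3 that had passed changed sign. Values that did not pass under either setting were counted as kept even where their sign changed.

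Same-numbered replicates did not deviate together: the correlation of their deviations lay between -0.05 and 0.05 in comparisons with 3 pairs. In 501Mel shMITF, with 2 pairs, it was 0.13. With the replicate number as a block, 0 were called higher in shSCR2 against shSCR1 and 1 (TAP1) in the contrast of the shMITF effects, and the other counts stayed within 1.5 times. No identifier of the same symbol on another contig was listed, so that this alternative was not run. Depth limits the class II chains: HLA-DRA, HLA-DRB1, HLA-DRB5, HLA-DQA1 and HLA-DQB1 had too few counts to pass the filter in any comparison with all replicates. With no filter, HLA-DRA was called higher in Hermes 3A shBRG1.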
